A study of Mus musculus with 12 samples.

Results

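The regions described here are stretches of DNA at microRNA genes with less methylation in blood progenitors of Dnmt1 mutant mice. Dnmt1 is the maintenance methyltransferase, which restores the methyl mark on newly made DNA when cells divide. They are the rows of the authors' list of hypomethylated regions whose assigned gene is a microRNA gene (a symbol beginning Mir and a number, or Mirlet7) and whose deposited distance to that gene is at most 5 kb. That rule gave 130 list rows and 104 gene symbols. They cover 123 regions assigned to a microRNA gene and 4 assigned only to a host transcript, of 35439 hypomethylated regions in all (0.358%). Of the symbols, 101 are microRNA genes and 3 are microRNA host transcripts (Mir22hg, Mir124a-1hg and Mir143hg). Both groups were lineage-negative bone marrow progenitors of BALB/c mice, that is, marrow from which cells with mature lineage markers have been removed. The wild type was compared with a mutant that the labels call dnmt1-/-, whereas the series describes a missense change modelled on hypomorphic fish alleles. Each genotype had 6 libraries, from 3 replicate numbers and 2 kits, 1 with bisulfite and 1 with enzymatic conversion, and 1 column of levels per replicate number (n = 3 against 3). No label states that replicates came from separate animals, and no read depth accompanies the levels. Lineage-negative marrow is a mixture, so a lower level in every cell and a different make-up of cells cannot be told apart, and no cell type marker was measured in these data.

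MicroRNAs are short RNAs that guide Argonaute proteins to messenger RNAs with a matching site, which are then repressed or degraded. A primary transcript folds into a hairpin that Drosha and Dgcr8 cut in the nucleus and Dicer1 cuts in the cytoplasm, and the target is chosen mainly by the seed, a short stretch near the 5′ end of the mature RNA. Many microRNA genes lie inside other genes or in clusters that share a transcript, and methylation at such genes is best known from tumours, where several of them are silenced, and from imprinted clusters.

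The mature microRNAs of the member genes were taken from RefSeq (GRCm38.p6), which held a gene span for 103 of the 104 symbols, a hairpin for 91 and a mature sequence for 95. Those of genes to which the results below return are shown 5′ to 3′ with the seed, bases 2 to 8, in capitals. The first 3 are shown because they share seeds. The genes Mir7-2 and Mir7b encode mature RNAs of the same seed, and Mir138-1 and Mir138-2 encode the same mature RNA.
miR-7a-5p: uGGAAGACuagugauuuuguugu
miR-7b-5p: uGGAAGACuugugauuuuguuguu
miR-138-5p: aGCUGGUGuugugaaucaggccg
miR-181c-5p: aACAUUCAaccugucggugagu
miR-425-5p: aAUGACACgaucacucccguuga
let-7b-5p: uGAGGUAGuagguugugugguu
miR-34a-5p: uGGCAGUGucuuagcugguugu
miR-203-3p: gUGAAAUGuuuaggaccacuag
miR-193a-3p: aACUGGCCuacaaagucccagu
miR-218-5p: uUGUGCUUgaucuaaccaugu
miR-345-5p: gCUGACCCcuaguccagugcuu
miR-341-3p: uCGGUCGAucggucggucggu
miR-1905: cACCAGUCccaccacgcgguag
miR-5121: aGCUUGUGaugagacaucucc

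Over all member genes with a sequence, 165 mature RNAs had 159 distinct seeds, and 6 seeds were shared by more than 1 gene. A seed in common does not place genes together, since Mir7-2 lies on chromosome 7 and Mir7b on chromosome 17.

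Some regions cover the hairpin itself. The member regions overlapped 65 hairpins and held 52 of these wholly. A CpG was present in 51 of the 65 (78.5%), with a median of 2, against 66.5% of all 1005 RefSeq hairpins, with a median of 1. Among the 26 member hairpins that no member region overlapped, 21 held a CpG (80.8%). The list holds no region with under 10 CpGs, which could favour hairpins with a CpG, and this was not tested. The following 6 are shown with each CpG in capitals, because a region of the list covers them or, at Mir341, lies inside: Mir341 (chr12:109611500-109611595, plus strand), Mir1905 (chr3:88536301-88536382, minus strand), Mir138-2 (chr8:94324311-94324381, plus strand), Mir425 (chr9:108568777-108568861, plus strand), Mir218-2 (chr11:35616816-35616925, plus strand) and Mir675 (chr7:142577064-142577147, minus strand).
Mir341 hairpin: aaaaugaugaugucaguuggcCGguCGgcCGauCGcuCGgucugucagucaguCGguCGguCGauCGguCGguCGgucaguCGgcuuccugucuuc
Mir1905 hairpin: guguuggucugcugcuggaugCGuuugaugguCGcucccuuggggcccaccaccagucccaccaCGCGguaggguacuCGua
Mir138-2 hairpin: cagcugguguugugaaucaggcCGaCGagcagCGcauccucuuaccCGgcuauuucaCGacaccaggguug
Mir425 hairpin: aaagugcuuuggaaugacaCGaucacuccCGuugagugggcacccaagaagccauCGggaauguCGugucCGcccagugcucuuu
Mir218-2 hairpin: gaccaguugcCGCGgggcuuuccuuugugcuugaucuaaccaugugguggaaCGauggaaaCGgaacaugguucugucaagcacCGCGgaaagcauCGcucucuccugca
Mir675 hairpin: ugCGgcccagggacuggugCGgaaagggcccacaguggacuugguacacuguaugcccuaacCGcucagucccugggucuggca

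Across the regions at microRNA genes, mean methylation was 47.3%, 49.7% and 51.2% in the 3 mutant replicates and 78.2%, 77.3% and 77.9% in the 3 wild-type replicates. The group means were 49.4% ± 1.95 (SD, n = 3) and 77.8% ± 0.429 (SD, n = 3), a difference of -28.4 percentage points. The authors chose these regions by this contrast on these samples, so the values describe the regions and test nothing. The other 35312 listed regions had 48.4% ± 2.31 and 76.8% ± 0.336 (SD, n = 3 each), also a difference of -28.4 points. Region by region, the median difference was -25.6 points at microRNA genes (quartiles -32.6 and -22.8, range -56.9 to -20.03) and -26.1 points at the other listed regions. The median region at a microRNA gene kept 67.1% of its wild-type level, and the median of the others kept 65.9%. Losses of 30 points or more were seen at 43 regions (33.9%, against 31.25% of the other listed regions), and of 40 points or more at 11 (8.66%, against 8.55%). By these shares microRNA genes lay close to the rest of the list.

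**Figure D1:**
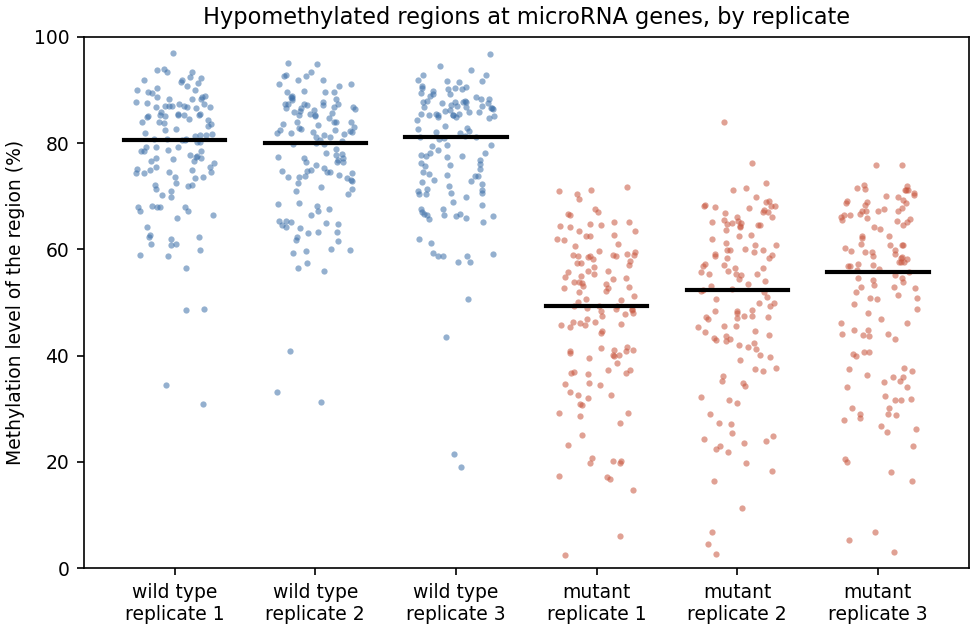
Methylation level (%) of each hypomethylated region at a microRNA gene in the 6 replicates. Each point is a region and each black bar the median of a replicate. The wild-type medians reach 81.1%, and those of the mutant lie between 49.4% and 55.6%.

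The 3 mutant levels lay below the 3 wild-type levels at each member region, as at 94.3% of all 107115 candidate regions that the authors tabulated. With limma, adjusted over all candidate regions, each member region was called lower. Over all candidate regions 93.5% were called lower and 0.0485% higher. Nothing is read from the members' counts, because the list was made from the same comparison. The medians of the mutant columns differed from those of the wild-type columns by -18.8 points over all candidate regions. With each column centred on its median, limma called 16.1% of candidate regions lower and 25.8% higher. Of the members 61 (48.0%) were then called lower and 0 higher, and of the other listed regions 48.7% were called lower. No member could be called higher, since each lost over 20 points, more than the shift of the medians.

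The mutant replicates varied more than the wild type. The median SD over replicates of a region was 4.0 points in mutant cells and 2.61 in wild-type cells. At the other listed regions the medians were similar, 4.25 and 2.68 points. Mutant replicate 1 had the lowest of the 3 mutant levels at 70 regions, replicate 2 at 41 and replicate 3 at 16. Replicate 1 was also the lowest at 56.4% of the other listed regions, against 55.1% here. The widest spread was at Mir5626, where the mutant levels were 52.8%, 60.1% and 75.8% and the wild-type levels 93.9%, 81.6% and 86.4%. Mir6931, Mir1247, Mir6921 and 1 region of Mir1928 followed, with mutant SDs of 10.7, 10.2, 9.12 and 8.37 points. At Mir1247 replicate 1 was the high one (34.9%, against 18.3% and 16.3%), the reverse of its place at most regions.

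By position, 71 regions overlapped the microRNA gene, 23 lay upstream and 33 downstream within 5 kb. Their median differences were -24.3, -29.0 and -27.4 points. In all, 61 regions lay in the span of a protein-coding gene, among them 53 of the 71 that overlapped the microRNA gene, and 66 lay outside such spans. The median differences were -24.3 points inside and -27.3 outside. The annotation used gives gene spans only, so exon, intron and UTR are not stated. A typical region was 798 bp long and held 13 CpGs, or 1.71 per 100 bp, where the other listed regions had medians of 720 bp, 12 CpGs and 1.79 per 100 bp. Across these regions a higher wild-type level went with a smaller loss (Spearman rho = 0.378, against 0.336 over the other listed regions). For CpG density and the difference, rho was 0.0570, against -0.167 over the other listed regions. These relations are across regions that share the same 6 columns, and the difference contains the wild-type level.

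**Figure D2:**
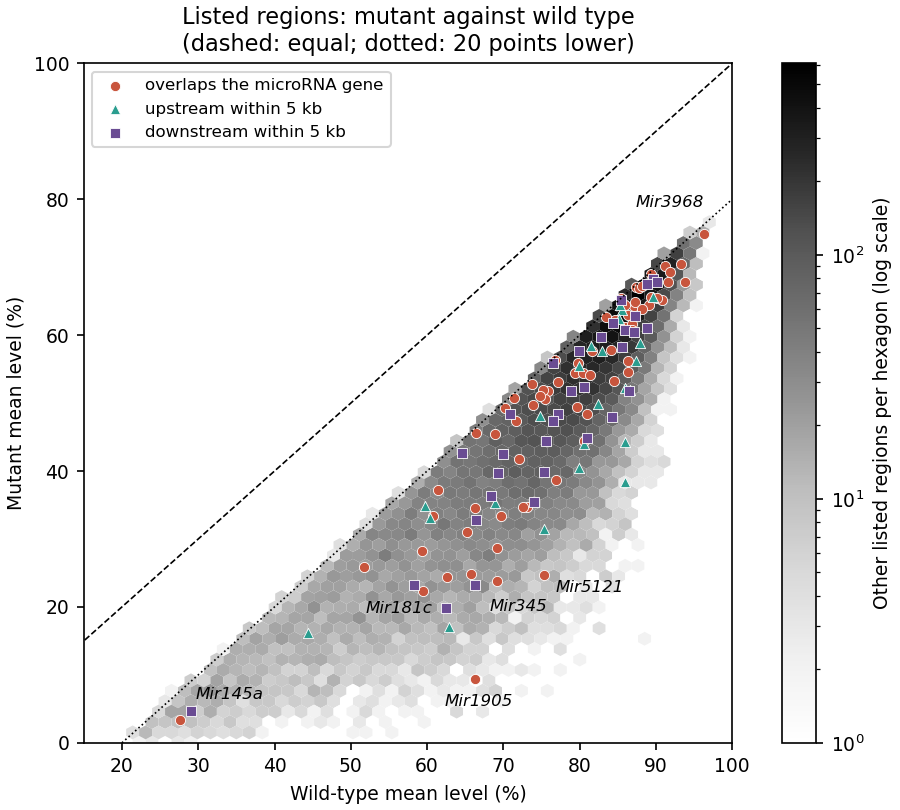
Mean level in the mutant against mean level in the wild type (%, n = 3 each). Coloured points are the regions at microRNA genes by position, and grey hexagons the 35312 other listed regions, on a log scale of number. The dotted line marks 20 points lost, the limit of the list. Mir1905 has the largest loss, -56.9 points, and Mir145a the lowest levels.

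The largest loss was at Mir1905, a microRNA gene inside the span of Mex3a, which encodes an RNA-binding protein (region chr3:88536127-88536688, mm10, 36 CpGs). Its levels were 14.7%, 6.71% and 6.86% in mutant cells and 67.2%, 63.3% and 68.3% in wild-type cells. The means were 9.42% ± 4.56 and 66.3% ± 2.60 (SD, n = 3 each), and the groups did not overlap, as at each member region. The hairpin shown above, with 5 CpGs, lies wholly in this region. Mir5121, in the span of the ribosomal protein gene Rpl13a, came next (chr7:45126602-45127256, 18 CpGs). Mutant levels were 25%, 23.5% and 25.6% and wild-type levels 76.6%, 73.0% and 76.2%, a difference of -50.6 points. This region lies 4781 bp from Mir150, which is known for its role in lymphocyte development and was not the gene the authors assigned.

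Mir7230 held more regions than any other member gene, 6 between 113333034 and 113342714 on chromosome 5. Averaged over the 6, the level was 34.5% ± 2.45 in mutant cells and 71.1% ± 2.44 in wild-type cells (SD, n = 3 each). The regions differed widely in level. That 4142 bp upstream had mutant levels of 34.6%, 43.0% and 37.7% and wild-type levels of 91.9%, 81.1% and 84.9%, a difference of -47.5 points. The region 2720 bp downstream had only 34.6%, 31.2% and 21.6% in the wild type and 6.11%, 2.67% and 5.33% in the mutant. Over the gene itself the mutant still had 60.7% ± 5.92 and the wild type 86.9% ± 1.22 (SD, n = 3 each). At 4 of the other 5 regions the loss was larger than over the gene.

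Mir7214 had 4 regions, and Mir3080, Mir3086, Mir1928 and Mir7685 had 3 each. Another 10 symbols had 2 regions and 88 had 1. Mir7214, Mir7216 and Mir7218 are neighbours on chromosome 17, where 8 regions between 27312916 and 27363347 had a mean of 53.9% ± 1.93 in mutant cells and 77.9% ± 0.516 in wild-type cells (SD, n = 3 each). At Mir7214 the nearer upstream region was the lowest in both genotypes, at 34.8% and 59.8%, and that 2713 bp downstream the highest, at 67.8% and 90.1%. The regions of Mir3086, which lie in Hspa12a, differed by -36.6 to -29.04 points, and those of Mir3080, in Tcf20, by -27.8 to -21.9 points.

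**Figure D3:**
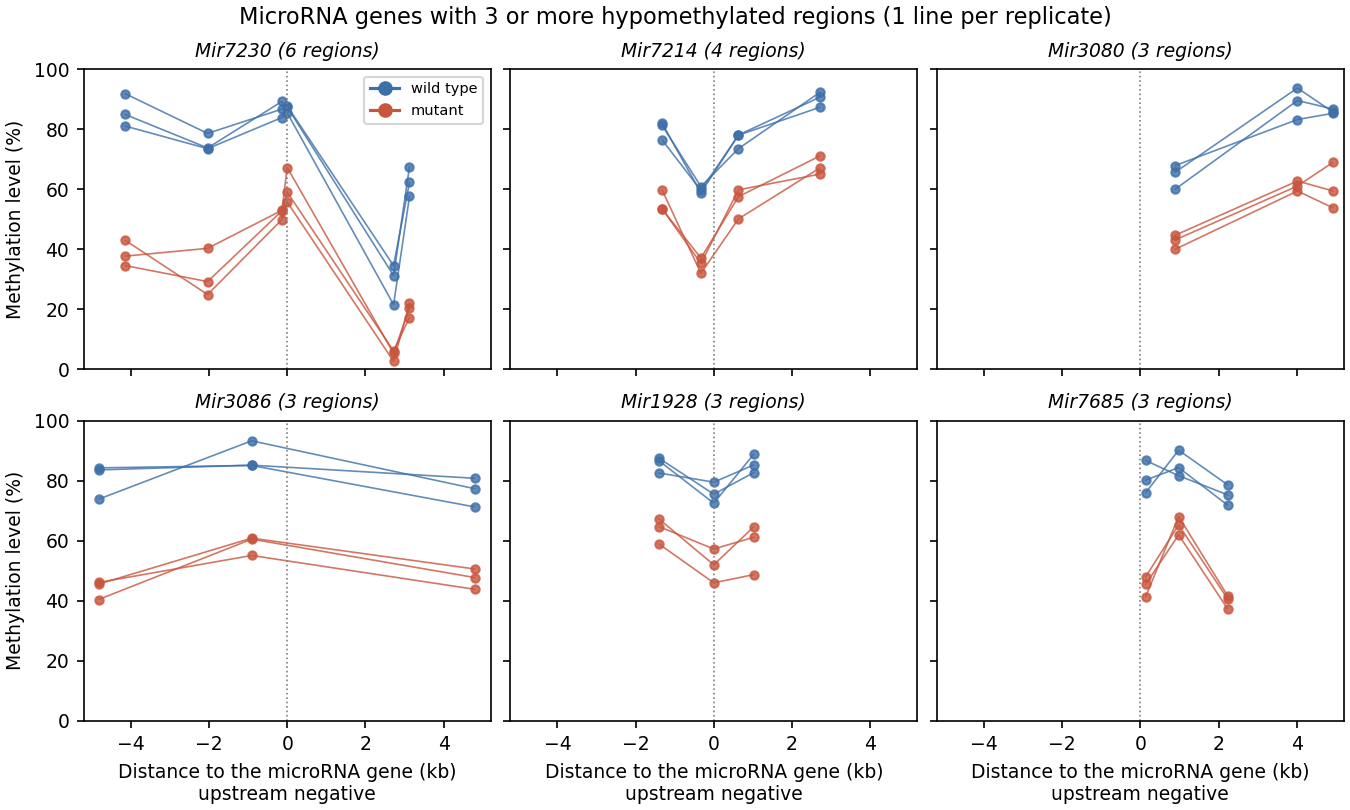
Level of each region (%) by its distance to the microRNA gene (kb, upstream negative) at the 6 genes with 3 or more regions, with 1 line per replicate. At each region the mutant points lie below those of the wild type. At Mir7230 the level falls to 4.70% in mutant cells and 29.1% in wild-type cells 2720 bp downstream.

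MicroRNAs with known roles in blood cells were taken as a list of 70 genes. A candidate region lay within 5 kb of 33 of them, 18 had a region in the hypomethylated list, and 4 were members: Mir181c, Mir425, Mirlet7b and Mir34a. Over the 33 genes there were 70 candidate regions, 66 of which limma called lower (94.3%, against 93.5% of all candidate regions) and 0 higher. No candidate region was tabulated near Mir223, Mir155, Mir146, Mir144, Mir451a or the Mir17 to Mir92-1 cluster, so their methylation was not analysed here.

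Mir181c belongs to the miR-181 family, known for tuning lymphocyte receptor signalling. Its region lies 1643 bp upstream (chr8:84180603-84180913, 14 CpGs) and is 1816 bp from the neighbouring Mir181d. Mutant levels were 16.7%, 16.4% and 18.2% and wild-type levels 67.2%, 62.2% and 59.2%. With means of 17.1% ± 0.945 and 62.9% ± 4.0 (SD, n = 3 each), the mutant replicates were close together and far below the wild type. The Mir425 region covers the whole hairpin inside Dalrd3 and lies 210 bp from Mir191, with which Mir425 forms a cluster (chr9:108568602-108569352). Levels were 30.7%, 39.1% and 30.2% in mutant cells and 71.0%, 65.3% and 72.8% in wild-type cells, a difference of -36.4 points. Replicate 2 was the highest mutant and the lowest wild-type value, and the groups did not overlap, as at each member region.

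Mirlet7b belongs to the let-7 family, known for restraining growth and fetal programmes. The region 3009 bp downstream had 36.8%, 34.9% and 37.4% in mutant cells and 65.9%, 68.2% and 70.9% in wild-type cells (chr15:85710411-85711525). It is also within 5 kb of Mirlet7c-2. Mir34a, a target of p53 that restrains the cell cycle, had a region 1183 bp upstream at 50.6%, 59.1% and 59.1% against 85.3%, 91.1% and 85.6% (chr4:150066584-150067271). The host transcript Mir22hg held a region 810 bp from Mir22 with means of 54.5% ± 2.47 and 79.4% ± 1.74 (SD, n = 3 each), the smallest loss in the group.

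Other blood microRNAs had listed regions that the authors assigned to another gene, and 3 are given here, chosen after their values were seen. Mir21a, a microRNA often raised in tumours, had 8.26% ± 4.202 in mutant cells and 47.8% ± 12.8 in wild-type cells. Mir486, an erythroid microRNA, had 32.9% ± 3.22 and 69.7% ± 2.75, and Mir142, which is expressed throughout blood cells, had 33.6% ± 6.41 and 68.5% ± 4.51 (SD, n = 3 each).

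MicroRNAs known to be silenced by methylation in tumours numbered 38, of which 30 had a candidate region, 20 a listed region and 7 were members. Of the 86 candidate regions near them limma called 66 lower (76.7%, against 93.5% of all candidate regions) and 0 higher. Among the regions not called were those of Mir375 and Mir9-3, with wild-type means of 0.963% and 0.778%, which leave little to lose. A region of Mir335, at 56.5% in the wild type, was not called either. The cause of the lower share was not tested. Mir1a-1 and Mir133a-2, muscle microRNAs made from 1 transcript, had 4 member regions together on chromosome 2. The region over Mir1a-1 (chr2:180388686-180391088, 41 CpGs) had 28.6%, 27.3% and 30.2% in mutant cells and 72.2%, 64.8% and 70.7% in wild-type cells, a difference of -40.5 points. Averaged over both regions of each gene, levels were 32.1% ± 2.93 and 71.6% ± 3.49 at Mir1a-1 and 38.6% ± 1.97 and 70.96% ± 1.57 at Mir133a-2 (SD, n = 3 each).

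Mir203, which limits proliferation in skin, had a region 4454 bp downstream with 45.8%, 49.9% and 59.6% in mutant cells and 85.1%, 83.9% and 90.5% in wild-type cells (chr12:112135408-112136745). Its mutant replicates were spread over more than 10 points. Mir193a had 2 regions, 1228 bp upstream and 2728 bp downstream, with differences of -27.3 and -27.1 points from wild-type levels of 60.4% and 78.8%. The host transcript of Mir124a-1, a neuronal microRNA, differed by -25.9 points over the transcript and by -22.6 points downstream. The Mir218-2 region (chr11:35616791-35617106) covers the hairpin in the axon guidance gene Slit3 and had 63.5%, 56.5% and 63.8% against 85.8%, 85.2% and 86.7%.

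Mir145a, a smooth muscle microRNA, had the lowest wild-type level of all member regions. Its region on chromosome 18 (61647741 to 61648007) had 2.56%, 4.56% and 3.11% in mutant cells and 30.9%, 33.1% and 19% in wild-type cells. The mutant kept 12.3% of the wild-type level, the smallest share among the members. A mutant replicate under 10% was seen at 3 member regions, those of Mir145a and Mir1905 and 1 of Mir7230. Of the 35312 other listed regions, 1291 had such a replicate, so low levels of this kind were not particular to either set.

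Imprinted clusters, in which expression depends on the parent of origin, formed the longest list, with many repeated copies. Of its genes 58 had a candidate region, 13 a listed region and 7 were members. Limma called 46 of 54 candidate regions lower (85.2%, against 93.5% of all candidate regions) and 0 higher. On chromosome 12, 5 member regions from Mir345 to Mir1247 had a mean of 34.7% ± 1.15 in mutant cells and 71.3% ± 2.22 in wild-type cells (SD, n = 3 each), a difference of -36.6 points. Mir345 lies apart from the others: its region ends at 108837522, and the next, of Mir493, starts at 109582209. It was counted as imprinted by the list alone, and had the largest loss of the 5, -45.3 points. Whether it belongs to the imprinted domain was not tested. Mir1247, in the span of the Dio3os transcript, was named for its loss and was not on the imprinted list. Its loss, -43.0 points, was the next largest of the 5. The regions between, of Mir493, Mir337 and Mir341, differed by -29.6, -26.7 and -38.2 points, so the mean over the 5 is not that of the listed cluster. The Mir345 region covers its hairpin, which has no CpG (chr12:108836664-108837522), and had 20.1%, 19.8% and 31.7% in mutant cells and 66.5%, 71.3% and 69.8% in wild-type cells. Mutant replicate 3 stood above the other two there.

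The Mir341 region was the shortest of all members, at 75 bp, and lies inside the hairpin shown above, within the Rian transcript (chr12:109611519-109611594). By the deposited count it held 10 CpGs, or 13.3 per 100 bp, the highest density among the members. The hairpin sequence has 12, all within the region's coordinates, so the deposited count does not include each CpG there. Levels were 34.6%, 45.6% and 36% in mutant cells and 85.3%, 76.4% and 68.9% in wild-type cells. The means, 38.7% ± 5.98 and 76.9% ± 8.23 (SD, n = 3 each), had the widest wild-type spread of any member region. Mir493 and Mir337, in the span of Rtl1, differed by -29.6 and -26.7 points. Their regions lie within 5 kb of each other's gene and of Mir540, Mir665 and Mir3544.

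At Mir296, in the Gnas cluster on chromosome 2, levels were 55.9%, 47.3% and 40.6% in mutant cells and 86.9%, 85.3% and 80.7% in wild-type cells. Mutant replicate 1, the lowest at most regions, was the highest here. Mir675, cut from the H19 transcript, stayed the most methylated of the named imprinted members, at 65.4% ± 1.09 against 90.1% ± 2.79 (SD, n = 3 each). Not every candidate region near Mir675 was lower. An unlisted one (chr7:142580498-142580929), picked with its value known, had 52.8% ± 4.65 in mutant cells and 46.0% ± 5.75 in wild-type cells (SD, n = 3 each). The groups overlapped there, and limma did not call it. Mir466j, counted with its family, lies on chromosome 10 and not in the Sfmbt2 cluster, and differed by -32.6 points. Its family has many near-identical copies, so its level is uncertain.

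**Figure D4:**
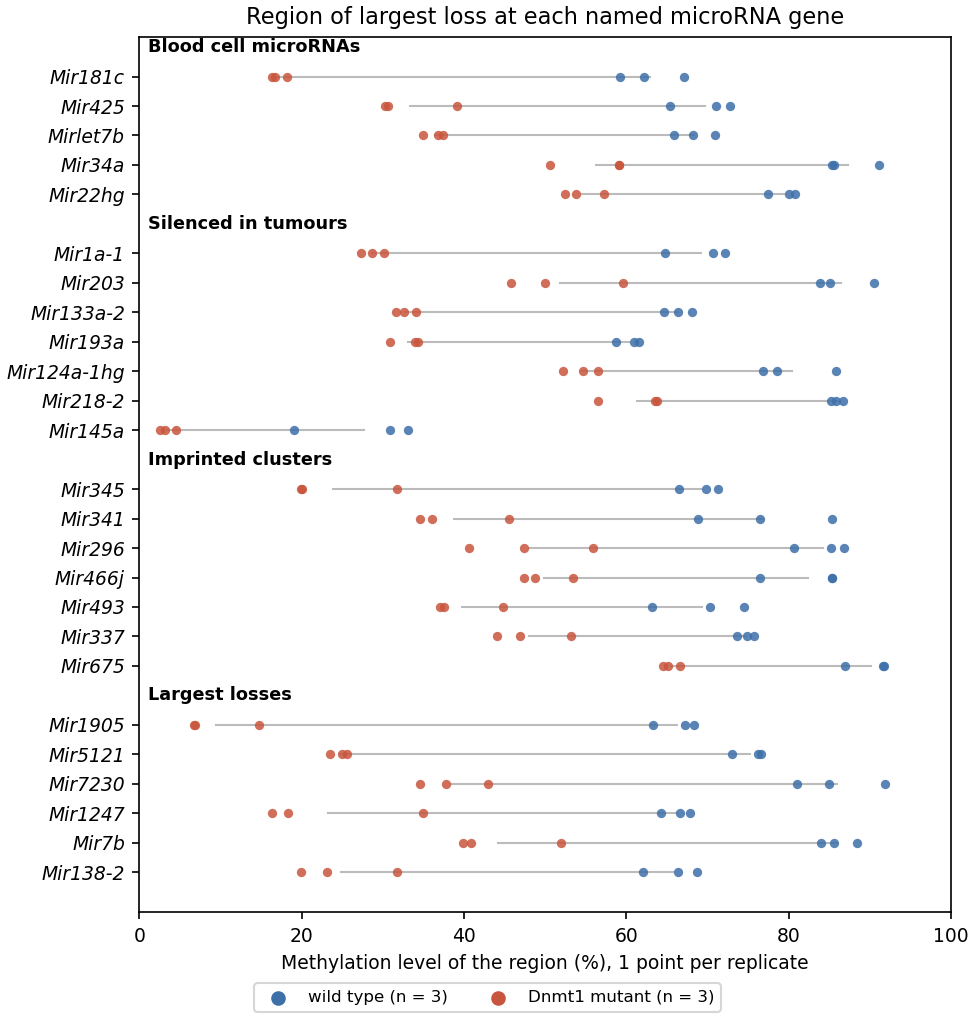
Level of the hypomethylated region of largest loss among those assigned to each named gene (%), with 1 point per replicate and a grey line joining the group means. In each of the 25 genes the 3 mutant points lie left of the 3 wild-type points. Mir1905 spans the widest gap and Mir145a the lowest levels.

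Mir7b and Mir7-2, and Mir138-2 and Mir138-1, share a seed and lie on different chromosomes. Mir7-2 and Mir138-1 were added for their seeds after their values were seen. At Mir7b, 3817 bp upstream, levels were 40.9%, 51.9% and 39.9% in mutant cells and 84.0%, 88.4% and 85.6% in wild-type cells (chr17:56238888-56239171). At Mir7-2, whose product miR-7a is known from endocrine and neural cells, 2 regions had a mean of 44.4% ± 1.18 against 80.5% ± 2.86 (SD, n = 3 each). Mir138-2, in Nup93, had 19.8%, 23.1% and 31.8% against 62.0%, 68.7% and 66.4% over its hairpin, a difference of -40.8 points. Mir138-1 differed by -28.2 points 2428 bp downstream. The other shared seeds joined Mir291a and Mir291b, Mir194-2 and Mir7055, and Mir346 and Mir7001. Mir291a, Mir291b, Mir292 and Mir292b, of an embryonic stem cell cluster, share a single region, with 46.2%, 43.8% and 46.8% in mutant cells and 68.0%, 65.2% and 65.8% in wild-type cells.

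Among regions that overlap the gene, Mir6408, Mir1934, Mir346 and Mir6975 had large differences, of -38.4, -38.1, -37.9 and -37.1 points. The longest run of CpGs was at Mir2139, in Klhdc7a, with 73 CpGs and levels of 41.0%, 48.6% and 43.6% against 82.4%, 79.8% and 79.4%. Mir6989 had 53 CpGs, 1 region of Mir7216 had 49 and Mir7080 had 37, with differences of -20.9, -33.6 and -23.7 points. The highest wild-type level was at Mir3968, in Trim80, with 97.0%, 95.1% and 96.8%, and 69.4%, 84.0% and 71.1% in the mutant. Mir6931, Mir7037, Mir7076 and Mir7001 followed with wild-type means of 93.8%, 93.3%, 91.9% and 91.6%. At the low end, after Mir145a and Mir7230, stood Mir7233, Mir194-2 and Mir6366, with wild-type means of 44.4%, 51.7% and 58.3%. Among the rest, 50 gene symbols with 55 regions, Mir7685 included, had differences of -36.1 to -20.03 points. Their means were 28.2% to 70.2% in the mutant, against 59.3% to 91.2%, and no filter on low values removed any member.

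Values on either side of the rule's limits are given as a description. Just inside the distance limit, regions of Mir3080 (4918 bp) and Mir3086 (4821 bp upstream and 4789 bp downstream) differed by -25.2, -36.6 and -29.1 points. Just outside, regions of Mir7216 (5044 bp), Mir7241 (5192 bp) and Mir7233 (-5679 bp, upstream) differed by -26.8, -29.8 and -32.9 points. The members nearest the limit of 20 points by the authors' own means were Mir1224, a region of Mir7214 and Mir291a, with -20.8, -20.7 and -20.8 points in the replicate means. Regions at Mir7229, Mir6516 and Mir7088 fell just short in the replicate means, at -19.98, -19.97 and -19.96 points.

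Regions near microRNA genes that the list left out were lower as well. Of the RefSeq microRNA genes, 649 had a candidate region within 5 kb and 343 a listed one. The 1965 candidate regions near them included 519 in the hypomethylated list, of which 393 had been assigned to another gene, and 0 in the hypermethylated list. Of the 1446 unlisted ones, limma called 1289 lower (89.1%) and 1 higher, with a median difference of -12.7 points. Over all 71672 unlisted candidate regions 90.3% were called lower and 0.067% higher, with a median of -13.5 points. The 1 higher region, at Mir7035 on chromosome 5 (136102390 to 136102480), had means of 34.1% in mutant cells and 19.2% in wild-type cells and was singled out after its value was seen. With the columns centred, 0 of the 1446 were called lower and 45.9% higher, and of all unlisted candidate regions 0 were called lower and 38.5% higher.

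The other genes of the microRNA pathway also had lower regions. Of 32 genes for processing, Argonaute and host transcripts, 27 had a candidate region, 27 a region called lower by limma and 0 a region called higher. Over all genes near a candidate region the shares were 96.9% lower and 0.353% higher. Of their 174 candidate regions 165 were lower (94.8%), with a median difference of -14.6 points. Srrt, which passes primary transcripts to Drosha, had the largest loss, with 38.6%, 36.6% and 42.0% in mutant cells and 86.4%, 84.4% and 86.4% in wild-type cells. The host transcripts Rian and Meg3 of the chromosome 12 cluster differed by -38.2 and -32.1 points, Rian at the Mir341 region itself. The editing enzyme gene Adar, the silencing factor gene Tnrc6c and the RNA-binding gene Khsrp differed by -31.5, -30.9 and -30.3 points. With the columns centred, 9 of the 27 genes had a region called lower and 22 a region called higher. Over all genes near a candidate region these shares were 38.2% and 57.2%, and genes near more candidate regions have more chances of a call.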

How the data were processed

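DNA methylation was measured by sequencing 12 libraries of lineage-negative marrow progenitors with 100 bp reads, per the labels' protocols. The submitters' processing notes name mm10 as the build. Aligner, methylation caller and any merging of both kits in the 6 columns: not given in the sources used here. In the deposited table the authors give a level per candidate region and replicate as a fraction, multiplied here to percent. Their deposited lists give the difference of means as a score, and the metilene q-value and a further adjusted p-value. The deposited count of CpGs per region and the distance to the assigned gene are also the authors'. The text gives means over the replicate columns. No coverage accompanies them, so the depth is unknown and no counting interval is given.

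The lists, as tested, hold no region with under 10 CpGs or an absolute difference under 20 points. Members and gene lists were chosen with earlier results of these data known. One limma fit (limma 3.58.1, R 4.3.3) on percent levels covered all 107115 candidate regions, two-sided, Benjamini-Hochberg adjusted, threshold 0.05, and was checked on simulated data. RefSeq spans (GRCm38.p6) reproduced 129 of 129 deposited distances within 1 bp, and 1 list row had no span. A list gene took candidate regions within 5 kb of its span, and neighbours can share a region.

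Genes named were members of the blood, tumour, imprinted and Hox lists (up to 8 each) and the 10 regions of largest loss. So were the 5 regions with most CpGs, the 5 with the largest mutant SD, and the 5 highest and 5 lowest wild-type means. The 3 nearest each limit, the gene with most regions (Mir7230), 10 overlapping regions and 6 pathway genes were named too. Alternatives were a logit scale, a replicate block, a trended robust prior, centred columns, each replicate left out, the authors' means and other limits. Python 3.11.15, pandas 2.3.3, numpy 2.4.6 and matplotlib 3.10.9 were used.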

Additional observations from a re-analysis of the deposited data

How the results depend on the processing

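The median difference over the microRNA regions ranged from -27.4 to -24.9 points with each replicate left out. It was -32.7 points at the 36 regions with a metilene q under 0.05. Those 36 were 28.3% of the member regions, against 23.3% of the other listed regions with such a q. Most members, among them the regions of Mirlet7b, Mir218-2 and Mir493, did not pass that limit, so a place in the list does not imply it. Each member region was called lower with any 1 replicate left out, on the logit scale and with the trended robust prior. With a replicate left out, 95623 to 100046 of all 107115 candidate regions were called lower too. The list was made from this contrast, so nothing is read from the members' calls. With the authors' means the 55 named regions kept their direction, which the list fixes, since it holds no difference under 20 points. Some moved by more than the SD of 1 group. At Mir22hg the difference went from -24.9 to -22.8 points, where the wild-type SD was 1.74. Leaving out a replicate could not turn the direction of the named regions, since the groups do not overlap at any member region. It says nothing of their stability. Centring the columns moved most counts. Then 17269 candidate regions were called lower and 27606 higher, and 61 members lower. That 0 members were called higher was fixed in advance. Each lost over 20 points, and the column medians differ by only -18.8 points. Of the unlisted regions near microRNA genes, 0% were then lower and 45.9% higher, and 9 pathway genes had a lower and 22 a higher region. Higher calls were few and unstable. Over all candidate regions they numbered 171 on the logit scale and 30 to 63 with a replicate left out (30 without wild-type replicate 1). At unlisted regions near microRNA genes they made up 0.346% on the logit scale, 0.207% with the trended robust prior and 0.0692% to 0.346% with a replicate left out (0.346% without mutant replicate 2, 0.138% without mutant replicate 3 and 0.138% without wild-type replicate 2). For pathway genes they were 1 on the logit scale, 1 with the trended robust prior and 0 to 1 with a replicate left out (1 without mutant replicate 3). The cause of these changes was not tested.

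Replicates with the same number in both genotypes hardly deviated together (correlations of 0.0372, 0.00489 and 0.04998 over 107115 regions). These values cannot show whether they share more than a number, such as a litter or a preparation. With the replicate number as a block, 99903 candidate regions were called lower and 70 higher, each member region lower, 88.2% of the unlisted regions near microRNA genes lower and 0.0692% higher, and 27 pathway genes had a lower region.

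Levels carry no read depth, so regions with few reads cannot be told from well covered ones. Only regions that the authors tabulated were analysed, and methylation says nothing here of microRNA expression.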

Other observations

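The genes named here were chosen after their values were seen. The Hox clusters hold 6 microRNA genes, all with a candidate region within 5 kb and 0 among the members. Limma called 4 of their 16 candidate regions lower (against 93.5% of all candidate regions) and 0 higher, and the median difference was -4.63 points. Mir10a was the only one with a listed region, at 8.31% in mutant cells and 29.1% in wild-type cells, and the authors assigned it to another gene. Mir196a-2 had 1.07% and 6.04% at its region of largest loss. Mir10b and Mir196b, with wild-type levels of 77.0% and 76.2%, differed by -13.8 and -12.8 points. At Mir615, 4 of 5 candidate regions had higher mutant means, by 17.5, 9.30, 6.64 and 4.94 points, and none of the 4 was called. In the first of these the mutant levels were 54.9%, 5.09% and 53.9% and the wild-type levels 27.7%, 16.8% and 16.9%, so the groups overlapped.

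Another microRNA gene lay within 5 kb of 24 member regions, 32 genes in all, of which 27 were not members themselves. Among the 27 were Mir26a-2 near Mir546, Mir143 near Mir145a and Mir298 near Mir296. The members were spread over 19 chromosomes with 0 on X or Y, from 1 region each on chromosomes 3 and 13 to 15 on chromosome 2. On chromosome 12 the median difference over 6 regions was -36.4 points.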
